A study of Homo sapiens with 6 samples.

Results

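The lysyl oxidase family consists of 5 genes, LOX, LOXL1, LOXL2, LOXL3 and LOXL4, taken by their GENCODE symbols from a table of 60675 genes, where each occurred once. Their transcripts were compared between wells of A2058, a human cell line from a metastatic melanoma, kept in medium with no vitamin C (control, n = 3 wells) and wells given vitamin C at 100 µM for 48 h (n = 3 wells). The study asked how the treatment changed the transcriptome of melanoma cells, whose migration and colony growth it also measured. The characteristics of the treated samples and the methods of the study give 100 µM, while the treatment text of all samples gives 50 µM sodium ascorbate. All wells are cultures of 1 line, so p-values reflect the variation between wells of that line. The libraries held 16248869 to 41884588 counts in control and 20944956 to 32549362 counts in vitamin C wells.

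Lysyl oxidases are copper enzymes that are mostly secreted. They oxidize lysine and hydroxylysine side chains of collagen and elastin, and the aldehydes that form react with neighbouring chains to cross-link the matrix. LOX and LOXL1 are made as proenzymes with a propeptide that is cleaved outside the cell, while LOXL2, LOXL3 and LOXL4 carry scavenger receptor domains in front of the same catalytic domain. In tumours the family is known for stiffening the matrix, and LOX is a textbook target of the hypoxia-inducible factors. Vitamin C is a cofactor of the enzymes that hydroxylate proline and lysine in collagen, a step that comes before cross-linking.

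LOX and LOXL2 were higher in the vitamin C wells, LOXL3 was the most abundant member and showed no detectable difference, and LOXL1 and LOXL4 gave at most 6 counts in any library. LOX rose 2.51-fold (95% confidence interval 1.68 to 3.76) and LOXL2 rose 1.45-fold (1.27 to 1.66). For LOXL3 the fold was 0.983 (0.899 to 1.07). Of the 5 members, 3 passed the filter on low counts (LOX, LOXL2 and LOXL3), and 2 of these were called, both higher, at a Benjamini-Hochberg adjusted p under 0.05 in edgeR's quasi-likelihood test. Over all 16353 genes that passed the filter, 11.2% were called, 6.09% higher and 5.09% lower with vitamin C. No member was lower in edgeR, where 0 were lower at an unadjusted p under 0.05, or in DESeq2 or limma-voom. The wells of the groups did not overlap for LOX and LOXL2, which was the case for 30.6% of all genes tested.

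**Figure D1:**
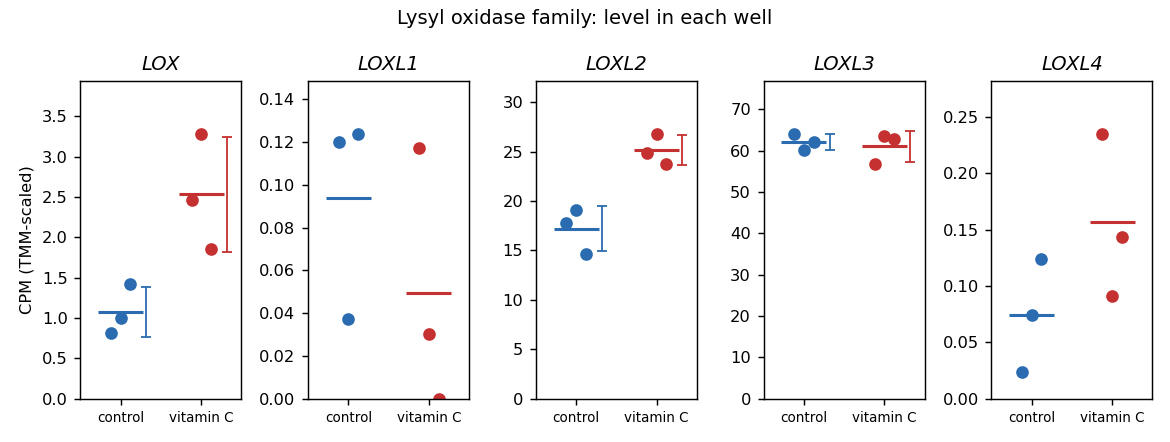
Level of each member in CPM (y axis, counts per 1000000 counts of the library after TMM scaling, a separate scale for each gene) in control wells (blue) and vitamin C wells (red). Points are wells, lines are means, and the bars of LOX, LOXL2 and LOXL3 are SDs (n = 3). The lowest vitamin C well lies above the highest control well for LOX (1.86 against 1.42) and LOXL2 (23.8 against 19.1).

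LOX (ENSG00000113083), the founding member, gave 34, 27 and 23 counts in the control wells (replicates 1, 2 and 3). The vitamin C wells gave 63, 108 and 39 counts in the same order. Scaled to counts per 1000000 (CPM), the control wells were at 0.816, 1.00 and 1.42 and the vitamin C wells at 2.46, 3.28 and 1.86. Every treated well was thus above every control well, and the gap between the nearest wells was smaller than the SD of the treated group. The mean was 1.08 ± 0.311 CPM without and 2.54 ± 0.713 CPM with vitamin C (SD, n = 3 wells per group), and the log2 fold change was 1.33 (SE 0.269, edgeR adjusted p = 0.0063). LOX ranked 98 by the size of the rise and 647 by p among the 16353 genes. The call rests on few reads, 84 over the control and 210 over the vitamin C libraries. Counting error alone gave the pooled ratio of 2.67 a 95% interval of 2.06 to 3.48 (exact). With each library left out in turn, LOX remained called, with log2 fold changes from 1.08 to 1.52 and edgeR adjusted p from 0.000614 to 0.0494. Vitamin C replicate 3, the lowest treated well for LOX, stood apart from the other treated wells over all genes (chi-square per degree of freedom 11.1 and 10.9, against 3.35 between the other two), and without it the LOX log2 fold change was 1.51 (edgeR adjusted p = 0.000614). LOX came closest to the threshold without vitamin C replicate 2, the highest well, and without control replicate 1, the lowest (adjusted p = 0.0458).

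LOX maps to chromosome 5 (GRCh38, 122063195 to 122078360, minus strand, GENCODE 29). The bases upstream of its outermost start site are printed here next to those upstream of a start site of LOXL3, since the former gene was called and the latter was not. They come from the RefSeq promoter windows (GRCh38.p14, minus strand), each running from 250 bases before to 50 bases after a start site, and were cut back to the bases outside the annotated exons of the gene. They cover chr5:122078361-122078509 for LOX and chr2:74553962-74554192 for LOXL3. The stretches are unlike in place. That of LOX lies outside its annotated gene, while that of LOXL3 lies within its annotated gene (74532414 to 74555690) and within DOK1 on the opposite strand. Capitals mark ACGTG or GCGTG on either strand, the core of the hypoxia response element.
LOX: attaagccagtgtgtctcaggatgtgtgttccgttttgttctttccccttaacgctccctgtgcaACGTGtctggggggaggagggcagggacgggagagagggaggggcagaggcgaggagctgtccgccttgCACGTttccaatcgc
LOXL3: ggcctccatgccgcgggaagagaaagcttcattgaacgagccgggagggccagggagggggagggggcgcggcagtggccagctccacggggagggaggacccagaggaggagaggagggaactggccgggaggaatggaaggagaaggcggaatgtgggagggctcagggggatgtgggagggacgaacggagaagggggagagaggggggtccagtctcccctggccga

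The 149 bases of LOX hold 2 such cores and the 231 bases of LOXL3 hold none. The table holds 7 windows for 4 members (LOX, LOXL1, LOXL3 and LOXL4). It holds none for LOXL2, the other member called, so cores could not be compared between called members and the rest. The whole window of 300 bases from which the printed LOX bases were taken held 4 cores, counting overlapping matches separately, a number reached by 4.4% of the 35116 windows in the table. Both inner windows of LOX, which overlap each other, held 2. LOXL3 had 0 in the window of the printed bases and 1 in its inner window, and LOXL1 and LOXL4 had 0. At least 1 core was present in 48.4% of all windows. Such a match is a string of letters and was not tested for binding. CpG dinucleotides, the sites where cytosine is methylated and hydroxymethylated, numbered 19 in the outer and 21 in both inner LOX windows, 12 in the outer and 21 in the inner LOXL3 window, 17 for LOXL1 and 45 for LOXL4, with a median of 14 over all windows. A number as high as that of LOXL4 was reached by 3.48% of the windows.

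The gene next to LOX was not called. SRFBP1, on the opposite strand, overlaps 138 bases (2.49%) of the exons of LOX and was more abundant, at 67.2 ± 2.20 CPM in control and 69.3 ± 5.26 CPM in vitamin C wells (SD, n = 3 wells per group). Its log2 fold change was 0.05 (95% confidence interval -0.09 to 0.18). Whether strand was used in the counting is not stated in the labels or methods. How reads in the bases that SRFBP1 and LOX share were counted is therefore not known.

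LOXL2 (ENSG00000134013) cross-links collagen IV of basement membranes and has also been described in the nucleus as a partner of SNAI1. Its level in the control wells was 17.8, 19.1 and 14.7 CPM (replicates 1, 2 and 3). In the vitamin C wells it was 24.8, 26.8 and 23.8 CPM. All control wells were below the treated wells, control replicate 3 being the lowest. The mean was 17.2 ± 2.28 CPM without and 25.1 ± 1.52 CPM with vitamin C (SD, n = 3 wells per group), and the log2 fold change was 0.54 (SE 0.0911, edgeR adjusted p = 0.0019). With 1491 counts over the control and 2014 over the vitamin C libraries, the pooled ratio of 1.44 had a counting interval of 1.35 to 1.54. LOXL2 ranked 407 by p and 840 by the size of the rise, so its smaller change was measured more precisely than that of LOX. The call held with each library left out (log2 fold change 0.45 to 0.61, largest edgeR adjusted p = 0.0157), and the log2 fold change was 0.57 without vitamin C replicate 3.

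LOXL2 maps to chromosome 8 (GRCh38, 23297189 to 23425328, minus strand). ENTPD4, on the same strand, shares 120 bases (2.1%) of its exons and had a log2 fold change of 0.08 (95% confidence interval -0.03 to 0.19). R3HCC1, 910 bases away on the other side, had a log2 fold change of -0.02. The non-coding AC090197.1 on the opposite strand shares 178 bases and had 28 control and 37 vitamin C counts.

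LOXL3 (ENSG00000115318) oxidizes lysines of collagen and elastin and has been described as a partner of SNAI1 as well. The control wells held 64.1, 60.1 and 62.2 CPM of its transcript (replicates 1, 2 and 3). The vitamin C wells held 56.7, 63.7 and 62.8 CPM. The wells of the groups overlapped, and vitamin C replicate 1 was the lowest of all. The means were 62.1 ± 1.99 and 61.1 ± 3.78 CPM (SD, n = 3 wells per group), and the log2 fold change was -0.02 (SE 0.0595, edgeR adjusted p = 0.845). The 95% interval of this log2 fold change ran from -0.15 to 0.10, and without vitamin C replicate 3 the LOXL3 value was -0.04. The estimates for LOX and LOXL2 lay outside this interval, which is not a test of a difference between members. LOXL3 maps to chromosome 2 (74532414 to 74555690, minus strand), between genes of the opposite strand that share exon bases with it. The mitochondrial protease gene HTRA2 shares 625 bases (14.3%) and the adaptor gene DOK1 shares 216 bases (4.95%), and neither was called (log2 fold changes 0.09 and 0.12).

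LOXL1 (ENSG00000129038), which is needed for elastic fibres, gave 5, 1 and 2 counts in the control wells and 3, 1 and 0 counts in the vitamin C wells. A count of 0 in vitamin C replicate 3 allows a level of up to 0.143 CPM. The pooled ratio of vitamin C over control was 0.533, with a counting interval of 0.117 to 1.99. LOXL4 (ENSG00000138131) gave 1, 2 and 2 counts in the control wells and 6, 3 and 3 in the vitamin C wells, a pooled ratio of 2.56 (0.839 to 9.27). Both intervals include equal levels and also the fold of LOXL2, and that of LOXL4 includes the fold of LOX, so changes of these sizes were not detectable at this depth. Intervals and limits of this kind cover counting error only.

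LOXL1 maps to chromosome 15 (73925989 to 73952137, plus strand) and shares 335 exon bases (9.21%) with the antisense gene LOXL1-AS1, which had 18 control and 27 vitamin C counts. LOXL4 maps to chromosome 10 (98247690 to 98268250, minus strand) and shares 152 exon bases (4.16%) with the antisense gene AL139241.1. AL139241.1 had 50 control and 20 vitamin C counts, in wells that did not overlap between the groups, as for 30.6% of all genes tested. Its log2 fold change of -1.25 (SE 0.413) missed the threshold (edgeR adjusted p = 0.071). The edgeR adjusted p was 0.0455 without vitamin C replicate 3 and 0.0832 to 0.223 without any other single library. The other nearest tested genes, CD276 and STOML1 beside LOXL1 and PYROXD2 beside LOXL4, lie 211471, 26786 and 115315 bases away and were not called (log2 fold changes -0.19, 0.09 and 0.24).

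**Figure D2:**
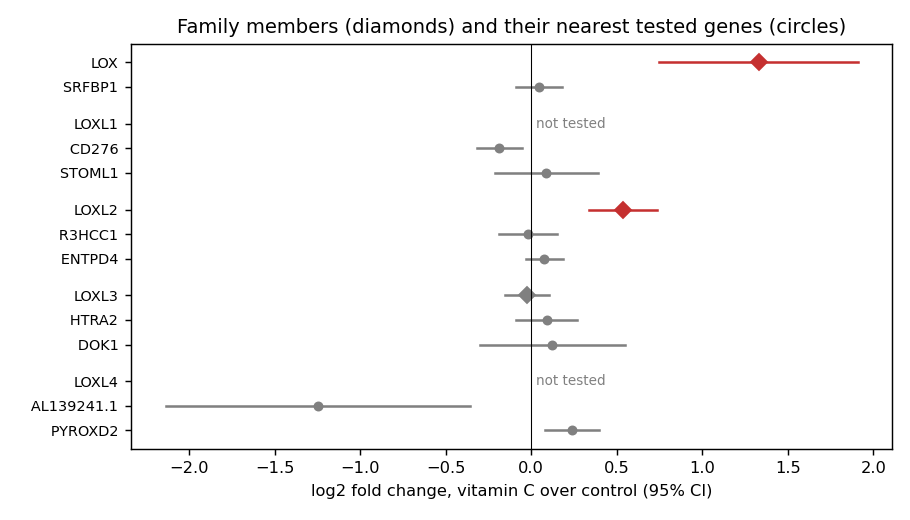
Log2 fold change between vitamin C and control wells (x axis, positive where higher with vitamin C) with 95% confidence intervals (bars) for the members (diamonds) and for the nearest tested gene on each side within 500000 bases (circles), grouped by member. Red marks an adjusted p under 0.05. LOX at 1.33 and LOXL2 at 0.54 are the red points, while SRFBP1 lies at 0.05 and ENTPD4 and R3HCC1 at 0.08 and -0.02.

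To compare the members with each other, CPM were divided by the length of all annotated exons of a gene, 5547 bases for LOX, 3637 for LOXL1, 5707 for LOXL2, 4363 for LOXL3 and 3653 for LOXL4. In control wells the order was LOXL3 with 14.2 ± 0.455, LOXL2 with 3.01 ± 0.399, LOX with 0.195 ± 0.0560, LOXL1 with 0.0258 ± 0.0135 and LOXL4 with 0.0203 ± 0.0137 CPM per kb (SD, n = 3 wells). The wells of LOXL1 and LOXL4 overlapped, while each of the other steps was larger than the spread between wells. In vitamin C wells the levels were 14.0 ± 0.866 for LOXL3, 4.40 ± 0.267 for LOXL2, 0.457 ± 0.129 for LOX, 0.0428 ± 0.0199 for LOXL4 and 0.0135 ± 0.0168 CPM per kb for LOXL1 (SD, n = 3 wells), where again only the wells of LOXL1 and LOXL4 overlapped. LOX, the tested member with the largest fold change, thus remained a minor transcript next to LOXL2 and LOXL3.

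The share of LOXL3 among the family transcripts per kb was lower in all vitamin C wells than in any control well. LOXL3 made up 81.4 ± 1.84% in control and 74.0 ± 1.79% in vitamin C wells, LOXL2 17.2 ± 2.16% and 23.3 ± 1.19%, and LOX 1.12 ± 0.345% and 2.41 ± 0.603% (SD, n = 3 wells per group). The sum over the 5 members was 18.0, 17.3 and 17.1 CPM per kb in the control wells (replicates 1, 2 and 3). In the vitamin C wells it was 17.9, 19.9 and 18.9 CPM per kb, so the groups overlapped in the sum. With the longest transcript as gene length they did not, at 22.2 to 23.5 in control and 23.8 to 26.4 CPM per kb in vitamin C wells.

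Within a well, the ratio of 2 members does not depend on scaling. LOXL2 counts were 27.8%, 31.8% and 23.6% of those of LOXL3 in the control wells and 43.8%, 42.1% and 37.8% in the vitamin C wells. The log2 ratio was higher with vitamin C by 0.58 for LOXL2 to LOXL3 and by 1.26 for LOX to LOXL3, without overlap of the groups (p = 0.1 each, two-sided exact permutation test, 0.15 adjusted over 3 pairs, where 0.1 is the smallest p that 3 against 3 wells allow). For LOX to LOXL2 it was higher by 0.67 with overlap of the groups (p = 0.2 by the same exact permutation test, also after adjustment). Since this test cannot go below 0.1 here, it could not decide whether the rises of LOX and LOXL2 differ in size. The edgeR 95% intervals of their log2 fold changes were 0.75 to 1.91 and 0.34 to 0.73.

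**Figure D3:**
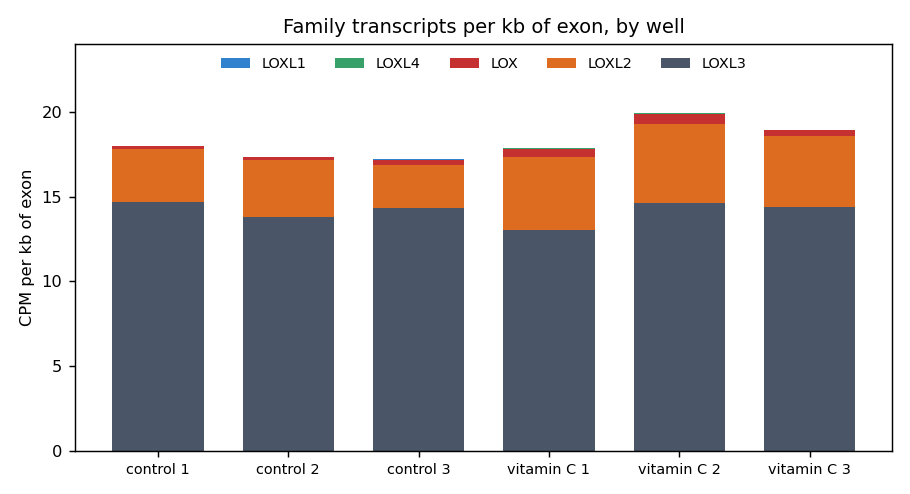
Level of the members per kb of exon (y axis, CPM per kb, stacked) in each of the 6 wells (x axis). LOXL3 (gray) takes most of each bar, between 13.0 and 14.7, the LOXL2 segment (orange) is 2.57 to 3.35 in control and 4.17 to 4.69 in vitamin C wells, and LOXL1 and LOXL4 are too low to be seen in most bars.

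The substrates of these enzymes differed in both directions. Of 10 tested genes of fibrillar collagens (12 genes were listed with elastin), 2 rose and 1 fell with vitamin C. That is 30.0% called, against 11.2% of all genes tested. The median log2 fold change was 0.10 against -0.0037 over all genes tested. COL11A2, a chain of collagen XI, was at 11.5 ± 1.33 CPM without and 23.1 ± 1.76 CPM with vitamin C (SD, n = 3 wells per group), a rise of 1.01 on the log2 scale (edgeR adjusted p = 1.8e-05). COL3A1 rose by 0.76 and COL5A3 fell by 1.21 on the log2 scale (edgeR adjusted p = 0.019 and 0.0030). The COL3A1 call was lost without control replicate 1 or 2 (adjusted p up to 0.077). COL1A1 and elastin (ELN), textbook substrates of LOX in connective tissue, were low, with 42 control and 36 vitamin C counts for COL1A1 and 7 and 10 for ELN.

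Collagen IV, the substrate of LOXL2 in basement membranes, was abundant and lower with vitamin C. Of 5 tested chains 4 fell and none rose in edgeR, where 0 were higher at an unadjusted p under 0.05, nor did any rise in DESeq2 or limma-voom (median -0.37). COL4A1 was at 384 ± 17.2 CPM without and 297 ± 6.65 CPM with vitamin C, and COL4A2 at 628 ± 32.7 and 510 ± 7.95 CPM (SD, n = 3 wells per group), log2 fold changes of -0.37 and -0.30. COL4A5 and COL4A6, whose genes lie side by side on the X chromosome, fell by 1.11 and 1.85 on the log2 scale. COL4A4 had 0.37 and did not pass the test (edgeR adjusted p = 0.47). COL4A3 was too low to be tested, with 8 control and 22 vitamin C counts.

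Genes of lysine hydroxylation and glycosylation of collagen prepare the residues that lysyl oxidases act on. Among 10 such genes, 1 was higher, 1 lower and 8 did not pass the test (median log2 fold change -0.04). For comparison, 11.2% of all genes tested were called, 6.09% higher and 5.09% lower. PLOD2, the lysyl hydroxylase of collagen telopeptides, rose from a mean of 425 ± 5.10 CPM to 483 ± 22.2 CPM (SD, n = 3 wells per group), or by 0.18 on the log2 scale (edgeR adjusted p = 0.018). It was lost without control replicate 1, 2 or 3 or without vitamin C replicate 2 (adjusted p up to 0.075). PLOD1 and PLOD3 had log2 fold changes of -0.06 and -0.00. P3H4, a partner of lysyl hydroxylase, had -0.19 (edgeR adjusted p = 0.048), a call lost without any 1 of the 6 libraries and under 5 other settings.

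Of 4 tested proteinases and enhancers of propeptide removal (8 were listed), 1 was higher and none lower in edgeR (median -0.02). This is 25.0% called, against 11.2% of all genes tested. At an unadjusted p under 0.05 in edgeR 0 were lower, and none was lower in DESeq2 or limma-voom. BMP1, which releases the LOX propeptide, was at 23.3 ± 2.31 CPM in control and 21.2 ± 0.421 CPM in vitamin C wells (SD, n = 3 wells per group), with a log2 fold change of -0.14 (edgeR adjusted p = 0.28). ADAMTS3, a procollagen proteinase, rose from 30.2 ± 2.52 CPM to 42.9 ± 0.801 CPM (SD, n = 3 wells per group), or by 0.50 on the log2 scale (edgeR adjusted p = 3.8e-04).

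Of 10 tested genes of matrix scaffolds and elastic fibres on which lysyl oxidases act (13 were listed), 5 were higher and 2 lower (median 0.16). The share called was 70.0% here and 11.2% over all genes tested. POSTN, periostin, which brings BMP1 to fibronectin and so promotes cleavage of LOX, was at 0.864, 0.707 and 1.49 CPM in the control wells (replicates 1, 2 and 3). The vitamin C wells were at 3.01, 2.86 and 3.06 CPM, all above the control wells (30.6% of all genes tested had no overlap of the groups). The log2 fold change of POSTN was 1.63 (SE 0.245, edgeR adjusted p = 7.9e-04). The fibrillins FBN1 and FBN2, the backbone of microfibrils, rose by 0.46 and 0.63 on the log2 scale (edgeR adjusted p = 1.1e-04 and 2.3e-05). FBLN5, fibulin-5, which tethers LOXL1 to elastic fibres, fell from 28.8 ± 0.972 CPM to 18.5 ± 0.713 CPM (SD, n = 3 wells per group), or by 0.64 on the log2 scale (edgeR adjusted p = 5.6e-05). Fibronectin (FN1) fell by 0.21 on the log2 scale (edgeR adjusted p = 0.0082), a call lost without control replicate 3 (adjusted p = 0.053). EFEMP2, fibulin-4, which binds the LOX propeptide, was named after its values were seen, with a log2 fold change of 0.62 (edgeR adjusted p = 0.045) that was lost without any 1 of the 6 libraries and under 3 other settings. EMILIN1, also higher (edgeR adjusted p = 0.044), was named likewise and lost without any library but vitamin C replicate 3.

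For the supply of copper, the metal of these enzymes, 9 genes were tested, of which none was higher and 2 were lower (median -0.14). This is 22.2% called, against 11.2% of all genes tested. In edgeR 0 genes of this list were higher at an unadjusted p under 0.05 and 4 were lower, and DESeq2 and limma-voom called none higher. ATP7A, the pump that loads copper into secreted enzymes, was at 79.9 ± 1.92 CPM in control and 77.6 ± 1.48 CPM in vitamin C wells (SD, n = 3 wells per group), with a log2 fold change of -0.04 (edgeR adjusted p = 0.64). The metalloreductase STEAP3 fell by 0.33 on the log2 scale (edgeR adjusted p = 0.016), a call lost without control replicate 1 or 3 (up to 0.077). The copper importer SLC31A1 fell by 0.14 on the log2 scale (edgeR adjusted p = 0.048), a call lost without any library but vitamin C replicate 3 and under 4 other settings.

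Of 6 tested amine oxidases outside the family (8 were listed), 1 was higher and none lower in edgeR (median -0.09). The 1 call is 16.7% of those tested, against 11.2% over all genes tested. At an unadjusted p under 0.05 in edgeR 1 was lower, and none was lower in DESeq2 or limma-voom. MAOA, a mitochondrial flavoprotein, rose by 0.43 on the log2 scale (edgeR adjusted p = 0.0068). The copper amine oxidases AOC2 and AOC3 had log2 fold changes of -0.76 and -0.73 and did not pass (edgeR adjusted p = 0.085 and 0.22).

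**Figure D4:**
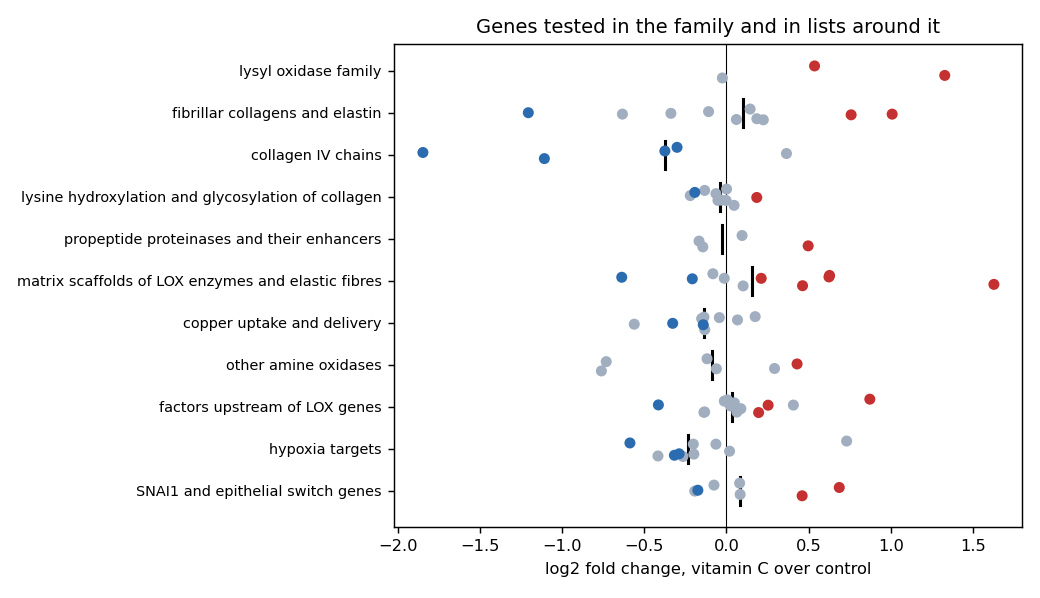
Log2 fold change between vitamin C and control wells (x axis, positive where higher with vitamin C) of each tested gene of the family and of the lists around it. Red points passed an adjusted p of 0.05 with a rise and blue points with a fall, gray points did not pass, and black bars are the median of each list. The collagen IV chains hold 4 blue points and no red one, and the scaffolds hold 5 red and 2 blue points.

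Regulators known to act on LOX genes were examined next. Of 14 such factors, 3 were higher and 1 lower (median 0.04, 28.6% called against 11.2% of all genes tested). HIF1A rose by 0.20 on the log2 scale (edgeR adjusted p = 0.0081). EPAS1, which encodes HIF-2α, was at 2.69 ± 0.245 CPM without and 4.99 ± 0.309 CPM with vitamin C (SD, n = 3 wells per group), a rise of 0.87 on the log2 scale (edgeR adjusted p = 0.0016). The receptor TGFBR1 rose by 0.25 and its ligand TGFB1 fell by 0.41 on the log2 scale (edgeR adjusted p = 0.0018 and 0.021), the latter being lost on leaving out control replicate 1, control replicate 2 or vitamin C replicate 2 (adjusted p up to 0.098).

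Of 10 other hypoxia targets none was higher in edgeR and 3 were lower (median -0.23, 30.0% called against 11.2% of all genes tested). CA9, with a log2 fold change of 0.73, was the 1 target higher at an unadjusted p under 0.05 (edgeR adjusted p = 0.12), and DESeq2 and limma-voom called none higher. PDK1 fell by 0.59, P4HA1 by 0.32 and SLC2A1 by 0.29 on the log2 scale (edgeR adjusted p = 6.3e-04, 3.4e-04 and 0.016). The SLC2A1 call was lost on leaving out control replicate 1, control replicate 3 or vitamin C replicate 1 (adjusted p up to 0.071).

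SNAI1, the partner of LOXL2 and LOXL3, had 113 control and 111 vitamin C counts (log2 fold change 0.08). Of 7 tested genes of the epithelial switch (8 were listed), 2 were higher and 1 was lower (median 0.08). That is 42.9% called, against 11.2% of all genes tested. The higher ones were SNAI2 and TWIST1 (log2 fold changes 0.69 and 0.46, edgeR adjusted p = 8.8e-05 and 0.0026). ZEB1 was lower (-0.17, edgeR adjusted p = 0.044), a call lost without any 1 of the 6 libraries and under 3 other settings.

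The cells expressed their labelled lineage. All 7 melanocyte markers were tested, 3 of them higher and 1 lower (57.1% called, against 11.2% of all genes tested). Their summed level was 2313 to 2429 CPM in control and 2113 to 2257 CPM in vitamin C wells, mostly DCT and MITF. DCT fell by 0.30, while MLANA, PMEL and TYR rose by 3.38, 0.73 and 0.29 on the log2 scale. MLANA was at 1.54 ± 0.290 CPM in control and 15.4 ± 0.671 CPM in vitamin C wells (SD, n = 3 wells per group). TYRP1, SOX10 and MITF did not pass the test. Fibroblasts are a rich source of LOX. Of 9 fibroblast markers, 7 were tested and 4 were higher (57.1%, against 6.09% higher over all genes tested). None of these markers was lower in edgeR, with 0 lower at an unadjusted p under 0.05, or in DESeq2 or limma-voom. Their summed level was 113 to 124 CPM in control and 185 to 217 CPM in vitamin C wells, mostly LUM and FAP. Their part in the LOX result was not tested. The 4 called were COL3A1, LUM, PDGFRB and FAP (log2 fold changes 0.76, 0.83, 1.60 and 0.78), DCN had 0.63 and PDGFRA -0.14 without passing the test, COL1A1 had -0.11, and COL1A2 and THY1 were too low to be tested.

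Of 6 endothelial markers, 3 were tested and 2 were higher (66.7%, against 6.09% higher over all genes tested). The higher ones were KDR and PECAM1 (log2 fold changes 0.87 and 1.60). The summed level of the 6 was 7.78 to 9.16 CPM in control and 16.0 to 17.1 CPM in vitamin C wells. CLDN5 was at 0 in all libraries, and the part of these markers in the result was not tested. The summed level of 8 blood cell markers was 8.60 to 10.02 CPM in control and 6.21 to 6.50 CPM in vitamin C wells, nearly all LYZ (2 tested, 1 lower). That of 6 epithelial markers was 63.1 to 67.4 and 56.0 to 58.6 CPM (3 tested, 1 lower). Over all genes tested 5.09% were lower.

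The genes most like LOX over the 6 wells, by the Euclidean distance between log2 CPM centred on each gene's mean among protein-coding genes of at least 5 CPM, were LAPTM5, FAM163A, C9orf64 and SUSD1 (distances 0.615, 0.634, 0.686 and 0.688, Pearson's r 0.959, 0.925, 0.911 and 0.918). Those most like LOXL2 were ADAMTS3, GSAP, PDGFD and PCDHGA12 (distances 0.163, 0.175, 0.193 and 0.202, r from 0.973 to 0.982). The genes were chosen for the smallest distance, so a high r was favoured by that choice and was not tested. The values of a pair of genes come from the same libraries, so they describe likeness in these 6 wells only. LAPTM5, a lysosomal membrane protein and the closest to LOX, was at 4.33 ± 0.343 CPM without and 8.40 ± 0.928 CPM with vitamin C (SD, n = 3 wells per group).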

How the data were processed

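RNA was measured in 3 control and 3 vitamin C wells. The authors depleted ribosomal RNA, sequenced both ends of the fragments, and used STAR for alignment and HTSeq for counting. The deposited values are raw counts per gene. The methods name GENCODE v19, whereas CASAVA 1.4, Trim Galore and hg38 appear in the processing notes of the submitters. GENCODE 29 (GRCh38) was used here for symbols, coordinates and exon lengths and held 57055 of the 60675 identifiers, so gene models may differ from those counted. Wells within a group differed by more than sampling noise (chi-square per degree of freedom 2.75 to 11.1, highest for vitamin C replicate 3 against the other treated wells).

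The test was edgeR 4.0.16 in R 4.3.3 (its expression filter, TMM and quasi-likelihood test, with p-values adjusted over 16353 genes), checked on simulated data. DESeq2 1.42.0, limma 3.58.1 (voom), other scalings, filters and gene lengths, a block for the replicate number and leaving out a library were alternatives. Exact tests used SciPy 1.17.1. Lists were described by counts and medians. The text draws on the members, up to 5 tested genes of smallest p per list, neighbours and overlapping genes, and 4 genes most like LOX and LOXL2. COL1A1, COL1A2, COL4A3, COL11A1, ELN, PLOD3, ATP7A, SNAI1, CDH1, EFEMP2, EMILIN1, MFAP4 and single marker genes were named outside this rule, after their values were seen. Members, lists and motif were chosen with earlier results of these data known.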

Additional observations from a re-analysis of the deposited data

How the results depend on the processing

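LOX and LOXL2 stayed higher and called under each of the 15 alternatives run for them, and LOXL3 was called under none. With another scaling, filter or tool, or with the replicate number as a block, the log2 fold change ranged from 1.30 to 1.38 for LOX (adjusted p at most 0.00735), from 0.53 to 0.55 for LOXL2 (at most 0.0024) and from -0.04 to -0.01 for LOXL3. With 1 library left out, it ran from -0.06 to 0.03 for LOXL3, and the pooled log2 ratio ran from -2.35 to -0.47 for LOXL1 and from 0.70 to 1.79 for LOXL4. Kept without a filter, LOXL1 and LOXL4 had fitted values of -0.83 and 1.23 (adjusted p = 0.74 and 0.68, edgeR). The difference in log2 ratio ran from 0.46 to 1.00 for LOX to LOXL2, from 1.05 to 1.48 for LOX to LOXL3 and from 0.47 to 0.69 for LOXL2 to LOXL3.

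Over all genes, the count called was 1829, 1699 in DESeq2, and 964 to 2095 with 1 library left out. It was 1092, 977 and 964 without control replicates 1, 2 and 3, 1584 and 1136 without vitamin C replicates 1 and 2, and 2095 without vitamin C replicate 3, and the cause was not tested. Upper quartile scaling gave 892 higher and 963 lower, against 996 and 833 with TMM. With the longest transcript as gene length, the control level was 4.84 CPM per kb for LOXL2 and 17.7 for LOXL3, the order of these members held, and the sum over the family no longer overlapped between the groups (22.2 to 23.5 CPM per kb in control and 23.8 to 26.4 in vitamin C wells). With the replicate block, 1913 genes were called, LOX and LOXL2 among them (1.31 and 0.54). Samples with the same number correlated in their deviations with r = 0.125, -0.036 and 0.113 across genes. Not every sample correlated best with its own number, and correlations this weak cannot decide whether the numbers pair the wells. Of 65 other genes, 16 changed their call under at least 1 alternative. Depth alone leaves the pooled LOX ratio an interval of 2.06 to 3.48, and LOXL1 and LOXL4 were too low to be tested.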

Other observations

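COL1A2 and COL11A1, fibrillar collagen genes that lysyl oxidases act on, were highest in replicate 3 of both groups. COL1A2 was at 1.24 CPM in control replicate 3 and 1.10 CPM in vitamin C replicate 3, against 0.0912 to 0.352 CPM in the other 4 wells, and COL11A1 was at 1.11 and 1.15 CPM there, against 0.213 to 0.391 CPM. Both were named after their values were seen. LOX did not share this pattern, being highest among control wells in replicate 3 and lowest among vitamin C wells in replicate 3.

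CDH1, the epithelial cadherin that SNAI1 represses, was too low to be tested, with 6 counts over the control and 30 over the vitamin C libraries. Its levels were 0.0240, 0.186 and 0 CPM in control replicates 1, 2 and 3. In vitamin C replicates 1, 2 and 3 they were 0.274, 0.517 and 0.286 CPM. The groups did not overlap, which was also so for 30.6% of all genes tested. MFAP4, a microfibril protein, had 0 counts over the control and 4 over the vitamin C libraries. Both genes were named after their values were seen.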
